A study of Mus musculus with 12 samples.

Results

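The genes described here buffer or recycle the adenine nucleotides of skeletal muscle. Ckm, Ckb and Ckmt2 encode the muscle cytosolic, brain-type cytosolic and sarcomeric mitochondrial creatine kinases, Slc6a8 the creatine transporter and Gamt the last enzyme of creatine synthesis. Ak1 encodes the main cytosolic adenylate kinase of muscle, Ampd1 and Ampd3 encode AMP deaminases, Adssl1 the muscle adenylosuccinate synthase and Mb myoglobin. They were chosen by symbol, with earlier results of these data known, and all 10 were present among the 23923 genes of the files of every mouse.

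Creatine kinase moves a phosphate group between phosphocreatine and ADP, so that ATP is held steady while a fibre contracts. Adenylate kinase turns a pair of ADP molecules into ATP and AMP, and AMP deaminase then removes AMP as IMP. Adenylosuccinate synthase and adenylosuccinate lyase bring IMP back to AMP, which closes the purine nucleotide cycle. Fast-twitch fibres are known for high creatine kinase and AMP deaminase activity, and myoglobin, an oxygen carrier, is known for its abundance in oxidative fibres.

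RNA was sequenced from the tibialis anterior, a fast-twitch muscle of the lower hindlimb, of 12 mice aged 6 weeks, with 1 library per mouse. The 6 controls were Myf6 cre/+; Smyd1 flox/+, and the 6 Smyd1 conditional knockout (CKO) mice were Myf6 cre/+; Smyd1 flox/-, so both groups carried the Cre allele and a floxed Smyd1 allele, and the strain was given as C57BL6/J;129S1/SvImJ for both. Cre thus also acts on the floxed allele of controls, which keep a wild-type allele, while CKO mice keep none. Smyd1 is a muscle-specific lysine methyltransferase, and Cre is expressed from the Myf6 gene, so that deletion takes place in muscle fibres from around birth, once they have formed, and leaves the other cells of the muscle with their floxed allele. The breeding scheme in the study's methods adds a Rosa26 YFP reporter allele to both groups. The study states that it used only males for the experiments after its first histology. All 4 Y-linked genes looked at were above 1 FPKM in all 12 libraries. The comparison asks how loss of Smyd1 in fibres bears on the RNA of the energy-buffering enzymes.

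Values are FPKM as deposited, the number of fragments of a gene relative to its transcript length and to the size of the library, so levels can be set side by side between genes. Fold changes are differences in mean log2(FPKM + 0.1), CKO minus control, from a limma fit over the 12695 genes that reached 0.1 FPKM in at least 6 of 12 libraries, and adjusted P is its Benjamini-Hochberg value over all of these genes. The pseudocount of 0.1 makes the change of genes below 1 FPKM, here Ckb and Ampd3, look smaller than it is. All 10 genes passed the filter.

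The library totals in fragments are unknown, but the low FPKM steps placed the libraries within a 1.80-fold range of relative depth, with medians of 1.19 in controls and 1.24 in CKO. The median log2 fold change of all genes was 0.18 and 77.9% of genes were above 0, against a median of 0.01 after median-ratio scaling. Values after median-ratio scaling are therefore given beside those of the FPKM as deposited. Smyd1 itself was at 33.0 to 47.1 FPKM in controls and 27.8 to 39.9 in CKO (log2 fold change -0.13, SE 0.12, limma adjusted P = 0.545; -0.32 after median-ratio scaling, limma adjusted P = 0.0800). An FPKM over the whole transcript does not resolve the deleted exons, so it does not check the labels. Markers of fast fibres (9 genes, Myh4 and Actn3 among them) summed to 21023 to 35767 FPKM in controls and 22968 to 29019 in CKO, so the defining markers of the labelled muscle were present. The sum hides unlike changes. At an unadjusted P under 0.05, Myh4 alone was higher and none was lower, where 18.1% and 1.76% of all genes were, and the median log2 fold change was -0.30. After median-ratio scaling Myh4 was higher and 5 were lower, where 6.62% and 7.39% of all genes were, with a median of -0.49. Markers of slow fibres (8 genes) summed to 22.1 to 57.6 FPKM in controls and to 30.3 to 322 in CKO. By this sum CKO 1, 3 and 6 (155, 93.0 and 322 FPKM) stood above every control. Of these genes 7 were higher and none was lower at an unadjusted P under 0.05, where 18.1% and 1.76% of all genes were. With median-ratio scaling 6 were higher and 1, Myl3, was lower, where 6.62% and 7.39% of all genes were. The sum hides that Myl3 went the other way, with a log2 fold change of -0.52, and of -0.70 after median-ratio scaling. In RNA from whole muscle, fewer fibres of a type and less RNA per fibre cannot be told apart.

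The sequences just upstream of the cytosolic creatine kinases are shown because the Ckb to Ckm ratio is described below and because these windows differ in exact motif matches. Both are windows of 300 bases, written 5' to 3' on the gene's strand, that begin upstream of the RefSeq transcription start and end shortly after it (GRCm38.p6), Ckm at chr7:19410844-19411143 on the plus strand and Ckb at chr12:111672289-111672588 on the minus strand. Capitals mark matches on either strand to the E-box (CANNTG), the MCAT element (CATTCC), the TATA box (TATAAA) and MEF2 (by its consensus).
Ckm: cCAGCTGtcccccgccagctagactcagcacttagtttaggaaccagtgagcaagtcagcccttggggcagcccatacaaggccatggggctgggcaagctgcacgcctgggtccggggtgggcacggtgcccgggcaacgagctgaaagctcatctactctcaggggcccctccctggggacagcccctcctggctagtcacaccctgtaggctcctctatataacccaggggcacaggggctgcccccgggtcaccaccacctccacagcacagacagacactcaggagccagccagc
Ckb: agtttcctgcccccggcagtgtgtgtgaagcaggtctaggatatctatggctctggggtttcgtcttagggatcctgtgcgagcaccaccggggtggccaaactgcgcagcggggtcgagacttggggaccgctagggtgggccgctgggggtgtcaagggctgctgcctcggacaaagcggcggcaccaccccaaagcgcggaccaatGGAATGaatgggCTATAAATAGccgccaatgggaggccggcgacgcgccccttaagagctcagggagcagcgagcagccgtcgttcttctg
The Ckm window held 1 E-box and no exact match to the other motifs. It holds the similar string tatataa, which the search for TATAAA does not count. The Ckb window held no E-box, 1 MCAT match read on the opposite strand and 1 MEF2 match that overlaps the TATA box. Windows were in the table for 8 of the 10 genes, with 15 windows in all, since a gene can have several starts. An E-box was in 13 of the 15 windows and in 72.3% of all 32851 promoter windows. MEF2 matches were in 3.19%, MCAT matches in 14.7% and TATA boxes in 13.6% of all windows. A match is a string of letters and not a bound site.

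In controls the order of the levels was Ckm, Mb, Ckmt2, Ak1, Ampd1, Adssl1, Slc6a8, Gamt, Ampd3 and Ckb, from a mean of 4292 ± 1029 FPKM (SD, n = 6) for Ckm to 0.395 ± 0.293 FPKM (SD, n = 6) for Ckb. The ranges of Ampd1 and Adssl1 overlapped, as did those of Ampd3 and Ckb, and no other neighbours did. The mean levels of CKO mice stood in the same order, with overlap also between Ckmt2 and Ak1. Ckm alone made up 2.84 to 3.81% of summed FPKM in controls and 2.21 to 3.99% in CKO, and the 10 genes together 4.68 to 5.30% and 3.54 to 5.64%.

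**Figure D1:**
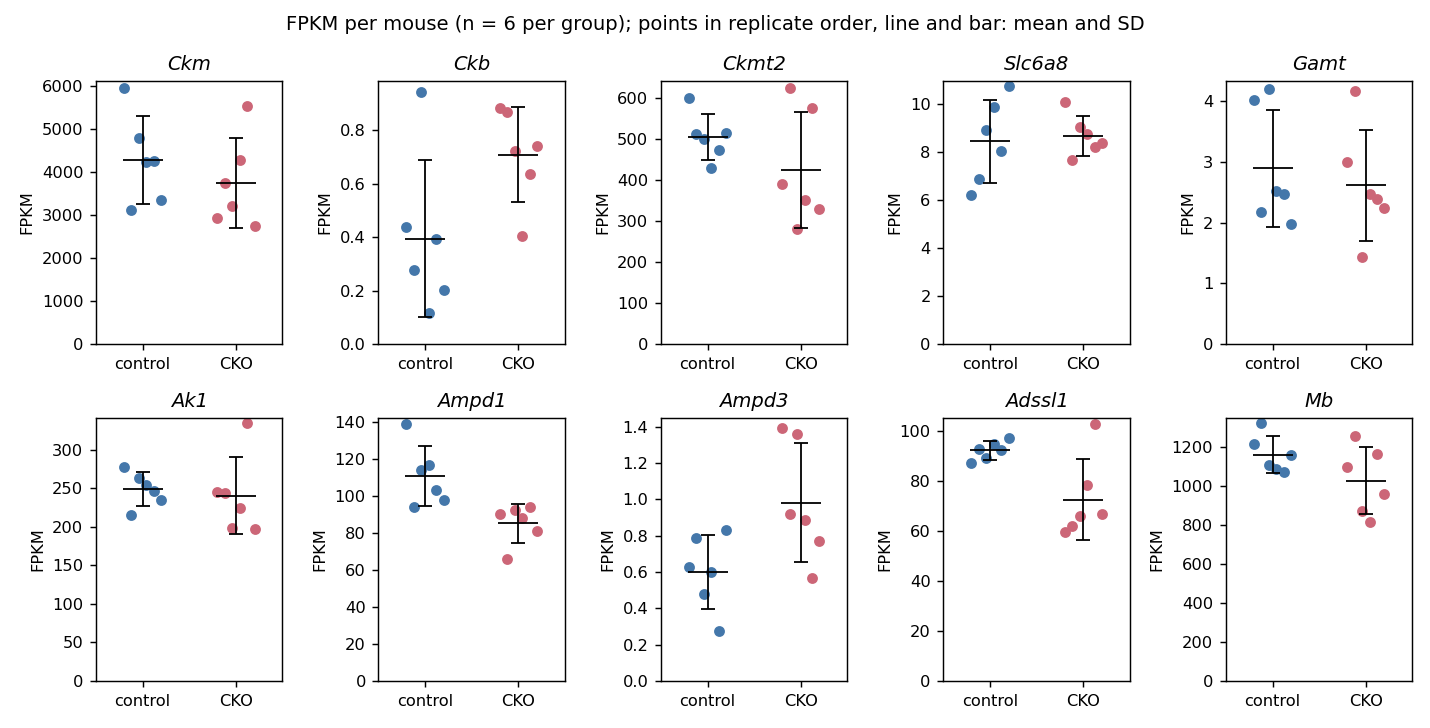
FPKM of the 10 genes in each mouse (vertical axes, linear from 0), with controls in blue and CKO in red; points stand in replicate order, lines are means and bars SD (n = 6 per group). The CKO points of Ampd1 all lie below the control points, and those of Adssl1 do so except for 1 mouse.

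None of the 10 genes passed an adjusted P of 0.05 in either direction, where 2.02% of all genes tested were higher and 0.268% lower in CKO. At an unadjusted P under 0.05, 2 of the 10 were higher, Ckb and Ampd3, where 18.1% of all genes were, and 2 were lower, Ampd1 and Adssl1, where 1.76% were. The median log2 fold change of the 10 was -0.17 and 3 of them were above 0. After median-ratio scaling 1 gene (Ckb) was higher at an unadjusted P under 0.05, where 6.62% of genes were, and 4 (Ampd1, Adssl1, Ckmt2 and Mb) were lower, where 7.39% were. Ampd1 alone then had an adjusted P under 0.05, and no member was higher at that threshold, where 0.701% of genes were lower and 0.764% higher. Under quantile normalization 1 gene (Ckb) was higher and 2 (Ampd1 and Adssl1) were lower at an unadjusted P under 0.05, where 6.38% and 6.59% of genes were, and none passed the adjusted threshold, where 0.796% and 0.536% did. Without CKO 1, 3 and 6, a choice made after seeing the data, no member was higher and 1 (Ampd1) was lower at an unadjusted P under 0.05, where 7.02% and 1.28% of genes were, and none passed the adjusted threshold, where 0.0329% and 0.0246% did.

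**Figure D2:**
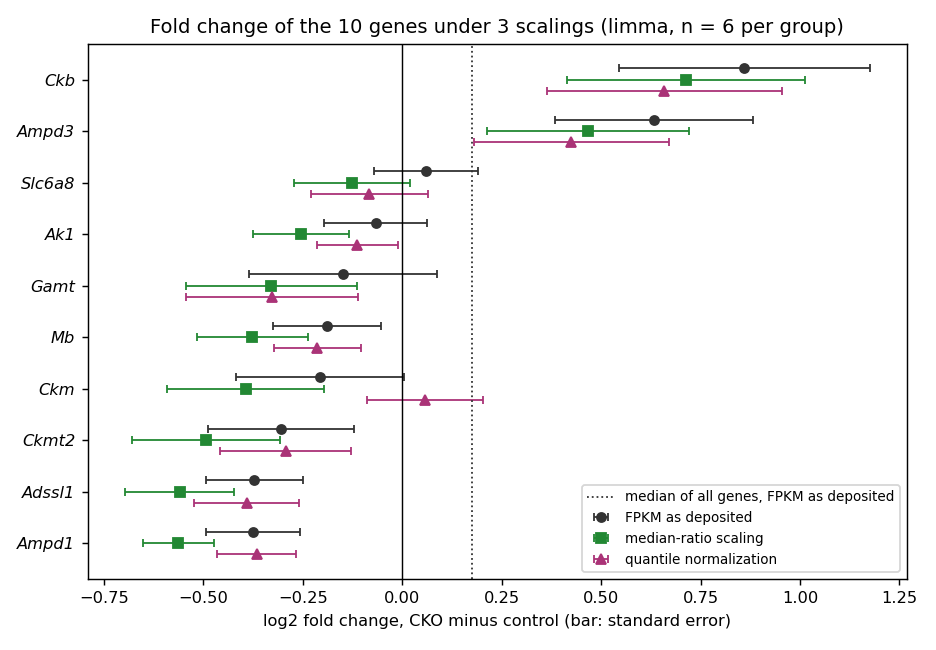
Log2 fold change of each gene, CKO minus control (horizontal axis), with its standard error (bars) from limma fits on FPKM as deposited (circles), after median-ratio scaling (squares) and after quantile normalization (triangles), with the all-gene median of the first fit as a dotted line. Ckb and Ampd3 lie above 0 and Ampd1, Adssl1, Ckmt2, Mb, Gamt and Ak1 below 0 under all 3, while Ckm and Slc6a8 lie on both sides.

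Ckm, the most abundant of the genes, was at 5961, 3128, 4804, 4241, 4272 and 3349 FPKM in controls 1 to 6 and at 2926, 3756, 3221, 4295, 5531 and 2744 FPKM in CKO 1 to 6. The groups overlapped widely, and only CKO 1 and CKO 6 were below the lowest control. Its log2 fold change was -0.21 (SE 0.21, 95% interval -0.66 to 0.24, limma adjusted P = 0.601). It was -0.39 after median-ratio scaling (limma adjusted P = 0.395) and turned to 0.06 under quantile normalization. Ckm exons overlap an annotated gene on the opposite strand, and whether reads were counted by strand is not stated, which holds also for Ckmt2, Mb and Ampd3.

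Ckb, the form that prevails in brain and in muscle precursors, was at 0.44, 0.28, 0.94, 0.12, 0.39 and 0.20 FPKM in controls 1 to 6 and at 0.88, 0.87, 0.72, 0.40, 0.64 and 0.74 FPKM in CKO 1 to 6. All CKO mice were above the control median of 0.336 FPKM, but control 3 was above every CKO mouse. Ckb thus had a log2 fold change of 0.86 (SE 0.31, 95% interval 0.19 to 1.53, limma adjusted P = 0.154), and it was 0.71 after median-ratio scaling. Without control 3 it was 1.11 with a limma adjusted P of 0.0494. Without CKO 1, 3 and 6, the mice with high slow fibre markers, it was 0.71 (limma adjusted P = 0.670), no longer past the unadjusted threshold.

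Ckb is also expressed outside fibres, so the markers of other cells are given beside it. Schwann cell markers summed to 12.5 to 17.7 FPKM in controls and 14.7 to 23.0 in CKO, with all 8 tested and 3 higher at an unadjusted P under 0.05, where 18.1% of all genes were, and 0 higher after median-ratio scaling, where 6.62% were. Smooth muscle markers summed to 17.1 to 26.5 and 18.0 to 24.5 FPKM, with none of 5 past that threshold. Satellite cell markers summed to 1.31 to 1.97 and 1.92 to 3.02 FPKM, with 2 of 3 higher at that threshold, and 1 after median-ratio scaling. Macrophage markers summed to 7.52 to 28.0 and 10.5 to 16.2 FPKM, with none of 6 past it. The part of these cells in the Ckb values was not tested.

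Ckmt2, which sits between the mitochondrial membranes, ranged from 430.4 to 600.3 FPKM (median 505.7) in controls and from 280.4 to 623.9 FPKM (median 370.3) in CKO. CKO 1, 3, 4 and 6 were below every control and CKO 2 was above every control. The log2 fold change was -0.31 (SE 0.18, limma adjusted P = 0.362). It was -0.49 after median-ratio scaling, past the unadjusted threshold (limma adjusted P = 0.233), and -0.003 (limma adjusted P = 0.996) without CKO 1, 3 and 6. The CKO group had the wider spread, with a coefficient of variation of 33.1% against 11.1% in controls.

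The ratio of Ckb to Ckm within a library cancels any factor common to that library, apart from the effect of the pseudocount. Ckb was 0.00272 to 0.0196% of Ckm in controls (median 0.00813%) and 0.00942 to 0.0302% in CKO (median 0.0228%). The ratio was higher in 4 of 6 CKO mice than in any control, and CKO 4 and CKO 5 lay within the control range. The mean log2 ratio rose by 1.07, a 2.09-fold difference (exact permutation test, two-sided, P = 0.0173, adjusted over the 3 ratios P = 0.0260). It was 0.61 with an exact permutation P of 0.238 without CKO 1, 3 and 6, 0.52 with an exact permutation P of 0.0541 at a pseudocount of 1, and 0.60 with an exact permutation P of 0.134 after quantile normalization, which rescales high and low levels by unequal factors. Ckmt2 was 10.1 to 16.4% of Ckm in controls and 8.17 to 16.6% in CKO, a log2 difference of -0.10 (exact permutation test, two-sided, P = 0.645), and of -0.35 (exact permutation P = 0.0887) after quantile normalization.

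**Figure D3:**
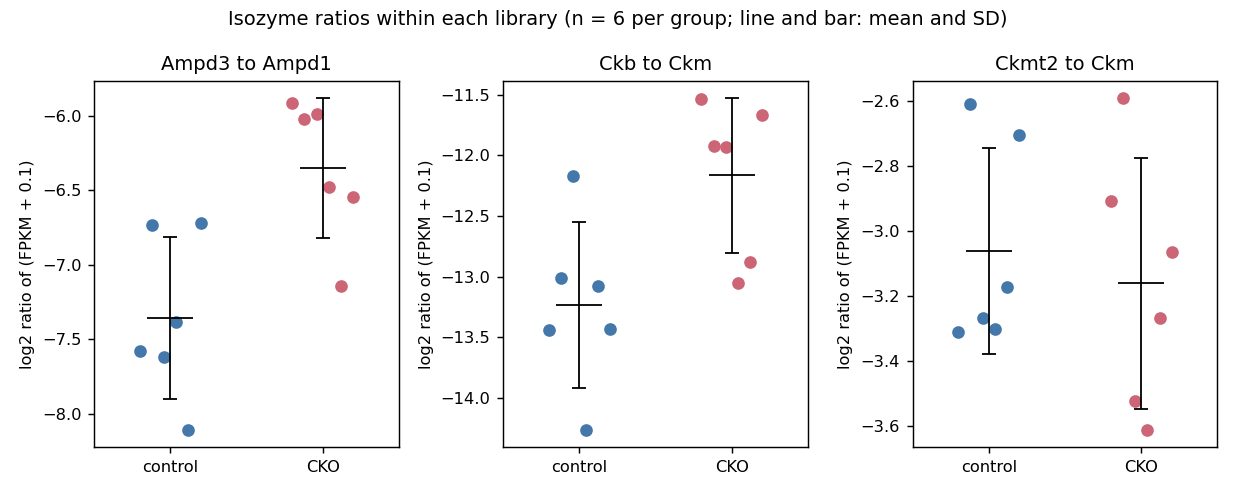
Log2 ratio of FPKM + 0.1 for Ampd3 to Ampd1, Ckb to Ckm and Ckmt2 to Ckm (vertical axes, each with its own range) in each control (blue) and CKO (red) mouse, with mean and SD (n = 6 per group). For Ampd3 to Ampd1, 5 of 6 CKO points lie above every control, for Ckb to Ckm 4 of 6, and for Ckmt2 to Ckm the groups overlap.

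Of the genes for creatine supply, Slc6a8, which carries creatine into the fibre, ranged from 6.23 to 10.75 FPKM (median 8.49) in controls and from 7.66 to 10.1 FPKM (median 8.57) in CKO. Every CKO mouse lay inside the control range. Its log2 fold change was 0.06 (SE 0.13, 95% interval -0.22 to 0.34, limma adjusted P = 0.826) and -0.13 after median-ratio scaling. Gamt ranged from 1.97 to 4.19 FPKM (median 2.50) in controls and from 1.43 to 4.17 FPKM (median 2.43) in CKO, and CKO 3 alone was below every control. The log2 fold change of Gamt was -0.15 (SE 0.24, 95% interval -0.65 to 0.35, limma adjusted P = 0.746) and -0.33 after median-ratio scaling (limma adjusted P = 0.547).

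Ak1, which links ADP to AMP, ranged from 215.0 to 278.1 FPKM (median 250.5) in controls and from 197.1 to 334.5 FPKM (median 234.4) in CKO. CKO 3 and CKO 6 were below every control and CKO 5 was above every control. For Ak1 the log2 fold change was -0.07 (SE 0.13, 95% interval -0.34 to 0.21, limma adjusted P = 0.798), and it was -0.25 after median-ratio scaling (limma adjusted P = 0.361).

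Ampd1, the AMP deaminase of adult muscle fibres, was at 138.8, 94.3, 113.9, 116.8, 103.3 and 97.9 FPKM in controls 1 to 6 and at 90.1, 66.1, 92.6, 88.1, 94.1 and 81.0 FPKM in CKO 1 to 6. The groups did not overlap, which was so for 0.189% of all genes tested in this direction, although CKO 5 (94.1 FPKM) and control 2 (94.3 FPKM) nearly met. Ampd1 had a log2 fold change of -0.37 (SE 0.12, 95% interval -0.63 to -0.12, limma adjusted P = 0.107), a decrease of 22.9%. After median-ratio scaling it was -0.56 (SE 0.09, limma adjusted P = 0.00673), and under quantile normalization -0.37 (limma adjusted P = 0.0935). Its unadjusted P stayed under 0.05 in 21 of 21 alternative settings, among them the fit without CKO 1, 3 and 6, where the log2 fold change was -0.43 (limma adjusted P = 0.510).

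Ampd3, the isoform known from red blood cells and from muscle under disuse, was at 0.63, 0.79, 0.48, 0.60, 0.27 and 0.83 FPKM in controls 1 to 6 and at 1.39, 0.92, 1.36, 0.89, 0.57 and 0.77 FPKM in CKO 1 to 6. CKO 1 to 4 were above every control, and CKO 5 and CKO 6 lay inside the control range. The difference on the log2 scale was 0.63 (SE 0.25, 95% interval 0.10 to 1.16, limma adjusted P = 0.179). It was 0.47 after median-ratio scaling (limma adjusted P = 0.442) and 0.38 without CKO 1, 3 and 6 (limma adjusted P = 0.721), neither past the unadjusted threshold. That threshold was also missed under quantile normalization, without CKO 1, without CKO 3 and without control 5. Its exons overlap 1 annotated gene on the same strand and 1 on the opposite strand, so its reads may be shared.

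Because red cells express Ampd3, red cell precursor and globin markers are given beside it. They summed to 13.0 to 52.0 FPKM in controls and to 24.5 to 40.9 in CKO, inside the control range. Of 10 listed genes 8 were in the files and 4 were tested, and none passed an unadjusted P of 0.05. Hba-a2, an alpha globin, and Slc4a1, the red cell anion exchanger, were below 0.1 FPKM in every library. Hbb-b1, a beta globin, ran from 0.0275 to 11.6 FPKM within the controls, so the sum is a rough gauge of red cells. Adipocyte markers summed to 0.758 to 2.54 FPKM in controls and to 2.16 to 6.82 in CKO. At an unadjusted P under 0.05, 3 of 3 tested were higher, and 2 of 3 after median-ratio scaling, where 18.1% and 6.62% of all genes were. At an adjusted P under 0.05, 1 was higher in each of these fits, where 2.02% and 0.764% of all genes were. The part of adipocytes in the Ampd3 values was not tested.

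The AMP deaminases were also compared as a ratio within each library, in which Ampd3 stood above and Ampd1 below the controls on average. Ampd3 was 0.452, 0.835, 0.421, 0.514, 0.265 and 0.849% of Ampd1 in controls 1 to 6 and 1.55, 1.39, 1.47, 1.01, 0.603 and 0.949% in CKO 1 to 6. The medians were 0.483% and 1.20%, and 5 of 6 CKO mice were above every control, CKO 5 being the exception. The mean log2 ratio rose by 1.01, a 2.01-fold difference (exact permutation test, two-sided, P = 0.0108, adjusted over the 3 ratios P = 0.0260, smallest possible P = 0.00216). The members were chosen with earlier results of these data known, so the P-values of the 3 ratios are given as a description. Leaving out each mouse in turn gave 0.86 to 1.17 with an exact permutation P of at most 0.0216. After quantile normalization it was 0.79 with an exact permutation P of 0.0238, and without CKO 1, 3 and 6 it was 0.81 with an exact permutation P of 0.0833.

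Adssl1, which returns IMP to the cycle, was at 87.2, 93.0, 89.3, 94.8, 92.6 and 97.3 FPKM in controls 1 to 6 and at 59.7, 61.9, 66.0, 78.3, 103.1 and 66.8 FPKM in CKO 1 to 6. The controls lay close together, with a coefficient of variation of 3.97% against 22.4% in CKO, and 5 of 6 CKO mice were below every control while CKO 5 was above every control. Adssl1 had a log2 fold change of -0.37 (SE 0.12, 95% interval -0.63 to -0.11, limma adjusted P = 0.121). It was -0.56 after median-ratio scaling (limma adjusted P = 0.0589) and -0.48 without CKO 5 (limma adjusted P = 0.0133). Without CKO 1, 3 and 6 it was -0.22 (limma adjusted P = 0.690), no longer past the unadjusted threshold.

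Mb ranged from 1075 to 1327 FPKM (median 1136) in controls and from 817 to 1257 FPKM (median 1031) in CKO. CKO 3, 4 and 6 were below every control and the other CKO mice lay inside the control range. Mb had a log2 fold change of -0.19 (SE 0.13, limma adjusted P = 0.437) and -0.38 (limma adjusted P = 0.227) after median-ratio scaling.

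**Figure D4:**
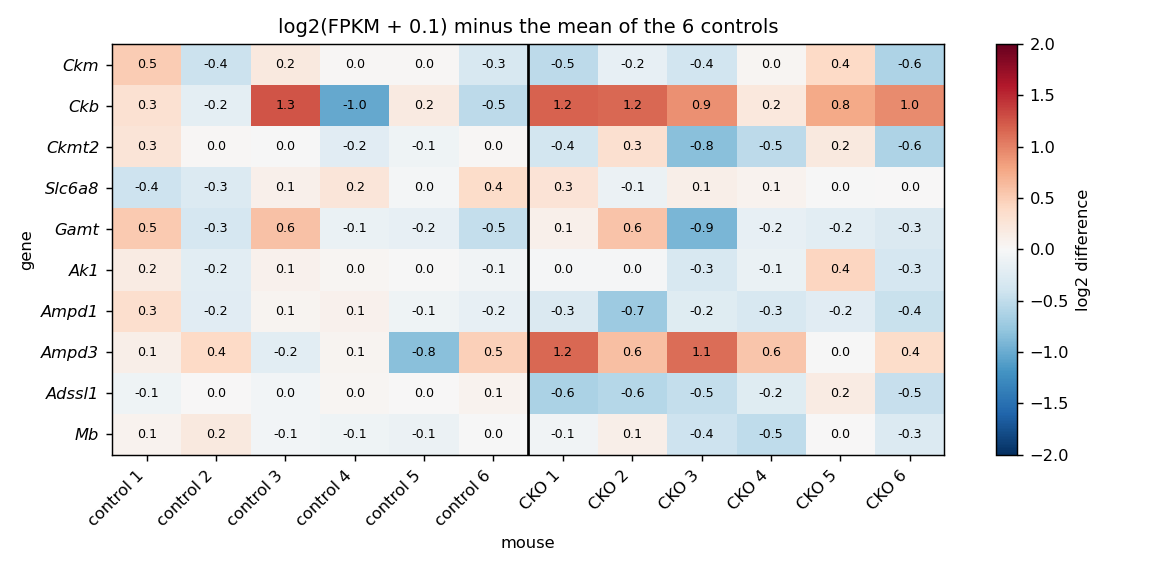
Difference of log2(FPKM + 0.1) from the mean of the 6 controls for each gene (rows) and mouse (columns), with blue below and red above the control mean and the black line between the groups. Ampd1 is below the control mean in every CKO mouse and Ckb above it, while CKO 5 parts from the other CKO mice in Adssl1.

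Of the fast myosins, Myh4 was at 2482 to 3837 FPKM in controls and at 3586 to 7498 in CKO. Its log2 fold change was 0.77 (SE 0.20, limma adjusted P = 0.0599), and 0.58 (limma adjusted P = 0.181) after median-ratio scaling. The type IIa and IIx myosins (Myh2 and Myh1) summed to 972 to 1219 FPKM in controls and to 1452 to 2886 in CKO, with no overlap. Myh1 alone did not overlap, which was so for 2.23% of all genes in this direction, but Myh2 did (45.8 to 151 and 73.9 to 316 FPKM). Both were higher at an unadjusted P under 0.05 and Myh1 at an adjusted P under 0.05, where 18.1% and 2.02% of all genes were. Without CKO 1, 3 and 6, Myh1 passed the unadjusted threshold, where 7.02% of all genes did, and Myh2 did not. Neither of them passed the adjusted one. CKO 5, which had the highest Adssl1, Ak1 and Ckm and the lowest Ampd3 of the CKO mice, also had the lowest sum of these myosins of the CKO mice, 1452 FPKM. CKO 1, 3 and 6 had the highest sums, 2886, 2886 and 2872 FPKM. Other values did not follow the order of the sums. CKO 2 (sum 1933 FPKM) had the lowest Ampd1 of the CKO mice (66.1 FPKM) and less Adssl1 (61.9 FPKM) than CKO 3 and CKO 6. CKO 6 had less Ampd3 (0.77 FPKM) than CKO 2 (0.92 FPKM) and CKO 4 (0.89 FPKM, sum 1655 FPKM). The part of fibre type in the values of the 10 genes was not tested.

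The other genes of these pathways were read from 5 lists with 62 genes, of which 54 were tested. At an adjusted P under 0.05, 4 were higher and none lower, where 2.02% and 0.268% of all genes were, and at an unadjusted P under 0.05, 16 were higher and 1 lower, where 18.1% and 1.76% of all genes were. Their median log2 fold change was 0.23, beside 0.18 for all genes tested. After median-ratio scaling the adjusted counts were 1 higher and 1 lower, where 0.764% and 0.701% of all genes were, and the unadjusted counts 9 higher and 4 lower, where 6.62% and 7.39% were. Without CKO 1, 3 and 6 no gene of the lists passed the adjusted threshold, and 10 were higher and none lower at the unadjusted threshold, where 7.02% and 1.28% of all genes were. The shares of all genes given here are those to set beside the counts of single lists.

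**Figure D5:**
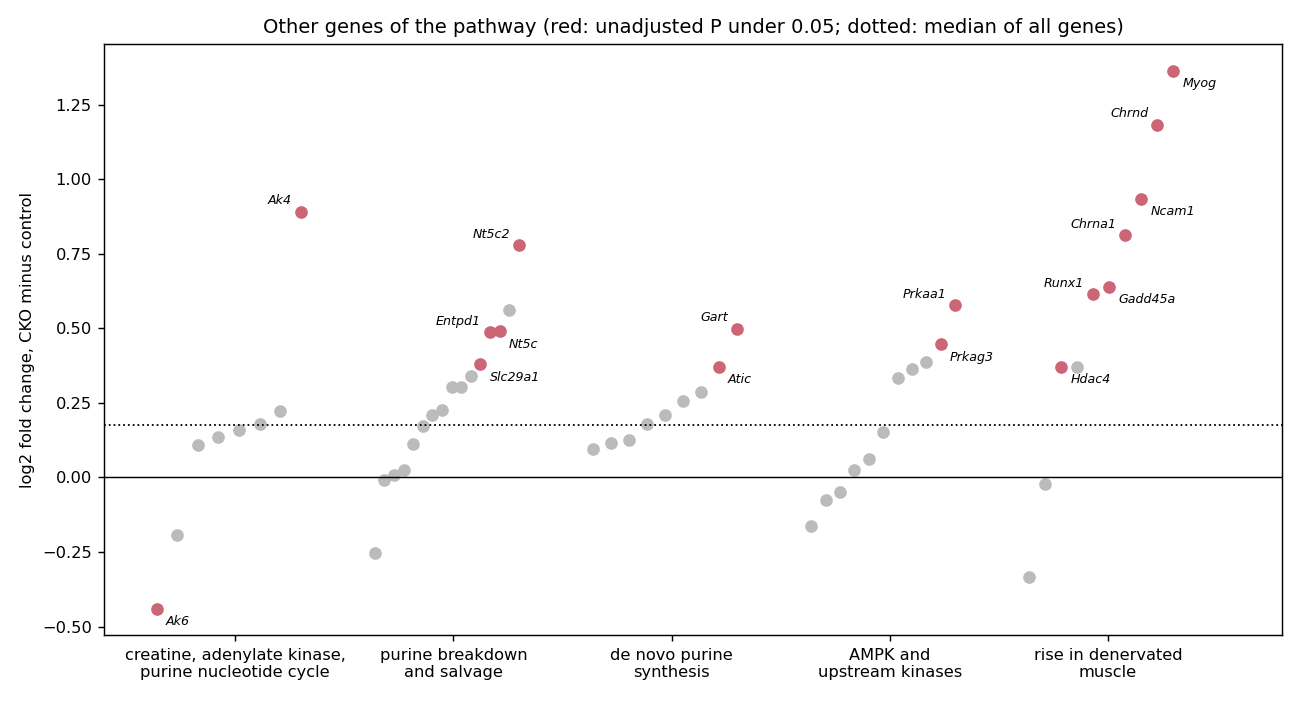
Log2 fold change, CKO minus control (vertical axis), of each tested gene of the 5 lists, in order of size within its list; red points had an unadjusted limma P under 0.05 and the dotted line is the median of all genes tested. Of the red points, 7 are in the list of genes known to rise in denervated muscle, where 10 genes were tested. Ak6 is the 1 red point below 0. The lists differ in size and were chosen with earlier results of these data known.

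Of the other creatine, adenylate kinase and purine nucleotide cycle genes, 8 of 12 were tested, 1 was higher and 1 lower at an unadjusted P under 0.05, and the median log2 fold change was 0.15. After median-ratio scaling 1 was higher and 2 lower, with a median of -0.04. Ak4, a mitochondrial adenylate kinase family member, was at 0.149 to 0.640 FPKM in controls and 0.442 to 0.897 in CKO, a log2 fold change of 0.89 (SE 0.25, limma adjusted P = 0.0731), and of 0.74 (limma adjusted P = 0.196) after median-ratio scaling. Ak6 was at 9.31 to 15.6 FPKM in controls and 7.09 to 10.1 in CKO, a log2 fold change of -0.44 (SE 0.14, limma adjusted P = 0.103) and of -0.63 (limma adjusted P = 0.0115) after median-ratio scaling. Exons of Ak6 are shared with Taf9 on the same strand, so its value is uncertain.

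Of the genes for purine breakdown, salvage and nucleoside transport, 16 of 17 were tested, 4 were higher and none lower at an unadjusted P under 0.05, and the median was 0.26. After median-ratio scaling 1 was higher, Nt5c2, with a median of 0.10. Nt5c2, a cytosolic nucleotidase that acts on IMP and GMP, was at 0.848 to 1.74 FPKM in controls and at 1.65 to 2.39 FPKM in CKO, a log2 fold change of 0.78 (SE 0.17, limma adjusted P = 0.0257). Its adjusted P was 0.0712 after median-ratio scaling. Nt5c, another nucleotidase, had a log2 fold change of 0.49, Entpd1, which splits extracellular ATP, of 0.49, and Slc29a1, a nucleoside transporter, of 0.38, none of them past an adjusted P of 0.05. After median-ratio scaling these were 0.32, 0.31 and 0.20, none past the unadjusted threshold.

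Of the enzymes of de novo purine synthesis, 9 of 10 were tested, 2 were higher and none lower at an unadjusted P under 0.05, and the median was 0.21. After median-ratio scaling 1 was higher, Gart, with a median of 0.03. Gart, which catalyses several early steps, had a log2 fold change of 0.50 (SE 0.13, limma adjusted P = 0.0634), and Atic, which makes IMP, of 0.37 (SE 0.17, limma adjusted P = 0.231). They were 0.32 and 0.19 after median-ratio scaling. Both overlapped the controls, Gart at 2.73 to 4.48 and 3.75 to 5.16 FPKM and Atic at 2.27 to 4.96 and 3.28 to 4.91 FPKM.

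All 11 genes of AMPK, the kinase that senses AMP, and of its upstream kinases were tested, with 2 higher and none lower at an unadjusted P under 0.05 and a median of 0.15. After median-ratio scaling 1 was higher, Prkaa1, and 2 were lower, with a median of -0.03. The lower genes, named after their values were seen, were Prkaa2, the alpha 2 catalytic subunit (-0.26, limma adjusted P = 0.282), and Prkab2, a regulatory beta subunit (-0.35, limma adjusted P = 0.296). Prkaa1, the alpha 1 catalytic subunit, was at 1.96 to 2.72 FPKM in controls and at 2.94 to 4.31 FPKM in CKO with no overlap, which was so for 2.23% of all genes in this direction, a log2 fold change of 0.58 (SE 0.13, limma adjusted P = 0.0303). After median-ratio scaling it was 0.40 (limma adjusted P = 0.0817). Prkag3, the gamma 3 subunit of fast muscle, had a log2 fold change of 0.45 (SE 0.16, limma adjusted P = 0.139), and of 0.26 after median-ratio scaling, where it missed the unadjusted threshold.

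Of the genes known to rise in denervated muscle, 10 of 12 were tested, and the median log2 fold change was 0.63. At an unadjusted P under 0.05, 7 were higher and none lower, where 18.1% and 1.76% of all genes were. The list was chosen with earlier results of these data known, so its counts are a description. After median-ratio scaling 5 were higher with a median of 0.46, and without CKO 1, 3 and 6, 4 were higher with a median of 0.30. Chrnd, the delta subunit of the acetylcholine receptor, was at 0.0936 to 0.278 FPKM in controls and at 0.397 to 0.671 in CKO. The groups had no overlap, which was so for 2.23% of all genes in this direction. Its log2 fold change was 1.18 (SE 0.20, limma adjusted P = 0.00721), and 1.04 (limma adjusted P = 0.0238) after median-ratio scaling. Chrna1, the alpha 1 subunit, rose by 0.81 (SE 0.18, limma adjusted P = 0.0331), and its adjusted P was 0.103 after median-ratio scaling. Myog, a myogenic transcription factor, had a log2 fold change of 1.36, Ncam1, an adhesion molecule, of 0.94, Gadd45a of 0.64, Runx1 of 0.62 and Hdac4 of 0.37, all with an adjusted P above 0.05. After median-ratio scaling Runx1 (0.46) and Hdac4 (0.19) missed the unadjusted threshold, and without CKO 1, 3 and 6 Ncam1 was at 0.46, Runx1 at 0.14 and Hdac4 at 0.15, all missing it. The other tested genes of the list, named after their values were seen, did not pass the unadjusted threshold: Musk, a receptor kinase of the synapse, at 0.37, and the ubiquitin ligases Trim63 at -0.33 and Fbxo32 at -0.02. Exons of Gadd45a, Hdac4, Ncam1, Runx1, Nt5c, Nt5c2, Slc29a1 and Gart overlap annotated genes on the opposite strand.

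Among 2887 genes with a mean of at least 5 FPKM, those whose pattern was most like Ampd3 over the 12 mice, after median-ratio scaling and removal of the group means, were Thra (Pearson r 0.87), AF357425 (0.87) and Fnip1 (0.82). For Ckb they were Wwtr1 (0.84), Aars (0.83) and 1110008F13Rik (0.82). Aars had a Spearman rho of 0.59, the lowest of the 6. Exons of AF357425 are shared with Rian and those of Aars with Exosc6, each on the same strand, so their values are uncertain. Exons of Thra overlap Nr1d1 on the opposite strand. These are the highest of many correlations over libraries that share depth and scaling, and are given as a description.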

How the data were processed

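RNA of the tibialis anterior of 12 mice (total RNA, ribosomal RNA depleted) was sequenced with 1 library per mouse, 6 controls and 6 Smyd1 CKO. The authors deposited FPKM values per gene for each mouse; the submitters' processing notes name TopHat2 2.0.10, Cufflinks 2.1.1 and mm9. Reads that mapped to several places were discarded, and the annotation and the use of strand are not given in the sources used here. FPKM values are estimates and not counts, so no count model was used, and relative depth was read from the steps between values below 0.15 FPKM.

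From each table of 23950 rows, 27 rows whose symbols had become dates were left out. Genes that reached 0.1 FPKM in 6 or more libraries were fitted on log2(FPKM + 0.1) with limma 3.58.1 (R 4.3.3) with an intensity trend, which was checked on simulated data. Log2 ratios within a library were compared with exact two-sided permutation tests over 924 assignments. The members and lists were chosen with earlier results of these data known. The text names the 10 genes, Smyd1, every gene of the 5 pathway lists with an unadjusted P under 0.05, and the 3 genes most like Ampd3 and Ckb. Other settings tried were median-ratio scaling and quantile normalization of the libraries, sample weights, no trend, a replicate block, each mouse left out in turn, a larger pseudocount (1), no filter, a stricter filter (1 FPKM) and, chosen after the data were seen, the 3 CKO mice with the highest slow fibre markers left out and quantile normalization for the ratios and lists. Promoter windows are from RefSeq (GRCm38.p6), and exon overlaps from GENCODE on GRCm38.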

Additional observations from a re-analysis of the deposited data

How the results depend on the processing

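Adjusted counts of higher and lower members, 0 and 0, moved to 1 lower (Ampd1) with median-ratio scaling. With sample weights they moved to 1 higher (Ampd3, limma adjusted P = 0.0471) and 2 lower (Ampd1, 0.0493, and Adssl1, 0.0150). When 1 mouse was left out they ran from 0 to 1 in each direction (Ckb higher without control 3, Adssl1 lower without CKO 5). For sample weights, the filter at 1 FPKM and the fits without 1 mouse, shares of all genes are not given here. Counts from these fits thus cannot be set beside all genes. Unadjusted counts, 2 and 2, moved to 0 higher with a filter at 1 FPKM, which drops Ckb and Ampd3, to 1 higher with median-ratio scaling or quantile normalization, to 4 lower with median-ratio scaling, and to 0 higher and 1 lower without CKO 1, 3 and 6. They ran from 1 to 2 higher and from 2 to 3 lower when 1 mouse was left out, with 1 higher without CKO 1, without CKO 3 or without control 5. The genes of the 5 lists past the adjusted threshold, 4, became 2 with median-ratio scaling, 2 with quantile normalization and 0 without CKO 1, 3 and 6, and the unadjusted 16 higher and 1 lower became 9 and 4, 10 and 2, and 10 and 0.

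The Ampd3 to Ampd1 ratio was 0.81 and the Ckb to Ckm ratio 0.61 on the log2 scale without CKO 1, 3 and 6, and the latter was 0.52 at a pseudocount of 1 and 0.60 with quantile normalization, each then with an exact permutation P above 0.05. When 1 mouse was left out they ran from 0.86 to 1.17 and from 0.86 to 1.28. Log2 fold changes that turned, none past a threshold, were Ckm (0.0571 with quantile normalization, 0.0918 without CKO 1, 3 and 6), Slc6a8 (-0.13 with median-ratio scaling, -0.0826 with quantile normalization, -0.0183 without CKO 1, 3 and 6, and -0.0224 without control 1 to 0.133 without control 6), Gamt (0.0671 without CKO 1, 3 and 6, and -0.293 without CKO 2 to 0.00226 without CKO 3) and Ak1 (0.0887 without CKO 1, 3 and 6). Leaving out 3 of 6 CKO mice also lowers the number of samples; beyond that the cause was not tested.

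Control and CKO mice share replicate numbers. Deviations from the group means had a mean correlation of 0.04 (from -0.09 to 0.16) between same-numbered mice. Between mice of other numbers it was -0.009 (from -0.16 to 0.19), and 2 of 6 controls correlated best with their own number. With the replicate block the adjusted counts of members were 0 and 0 and the unadjusted counts 2 and 2. In the 5 lists, 6 genes passed the adjusted threshold in place of 4. Chrna1 lost its call (limma adjusted P = 0.0508), and Ncam1 (0.0473), Gadd45a (0.0478) and Gart (0.0478) gained one. Shares of all genes with this block are not given here, so its counts cannot be set beside them. Ckb and Ampd3, below 1 FPKM in most libraries, rest on few fragments, and their differences are the least precise.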
